A study of Mus musculus with 6 samples.

Results

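miR-223 is a microRNA of neutrophils and other myeloid cells, and the deposited table counts both strands of its hairpin, miR-223-3p and miR-223-5p. These 2 members were taken by name from the 1960 mature mouse miRNAs listed, and both passed the filter on low counts, which left 297 miRNAs for testing. The libraries came from liver immune cells of wildtype female C57BL/6J mice aged 10 weeks, with 2 libraries, called biological replicates, in each of 3 groups. ConA+D8THC mice were injected retro-orbitally with 12.5 mg/kg of concanavalin A (ConA), a plant lectin used to set off T-cell-driven hepatitis in mice. They were also given the cannabinoid D8THC (delta-8-tetrahydrocannabinol) by intraperitoneal injection, 20 mg/kg in 100 µL of DMSO/corn oil, once 15 to 18 h ahead of ConA and once 30 min later. ConA+Vehicle mice received ConA at the same dose with the DMSO and corn oil vehicle. The Vehicle group was disease-free and had that vehicle without ConA. The number of mice behind a library and the hour of liver collection are not known here, so the p-values measure the spread between these libraries only.

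A miRNA hairpin is cut into a duplex of 2 strands, of which one, the guide, is usually kept in the silencing complex while the other is mostly lost. The guide finds its target messages through its seed, bases 2 to 8. In mouse and human myeloid cells the transcription factors C/EBPα and PU.1 are known to drive miR-223, and its guide strand, miR-223-3p, is known to repress the transcription factor Mef2c and the inflammasome sensor Nlrp3. Mice that lack miR-223 have more neutrophils, and these are hyperreactive.

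The Mir223 hairpin lies on the plus strand at chrX:96242817-96242926 in GRCm38.p6, the assembly behind build mm10. It falls whole within an exon of the long noncoding RNA gene F630028O10Rik (chrX:96239926-96243636, plus strand, in GENCODE M21). The RefSeq hairpin is shown because the results turn on both of its arms, which stand in capitals, the 5p arm first.
Mir223 hairpin: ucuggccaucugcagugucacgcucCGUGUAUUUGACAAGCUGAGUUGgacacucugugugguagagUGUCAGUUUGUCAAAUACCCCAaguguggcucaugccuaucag
The 5p arm spans hairpin bases 26 to 48 and the 3p arm bases 68 to 89, with 19 bases between them. The mature strands, miR-223-3p at chrX:96242884-96242905 and miR-223-5p at chrX:96242842-96242864, follow with the seed in capitals.
miR-223-3p: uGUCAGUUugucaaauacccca
miR-223-5p: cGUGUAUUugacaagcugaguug
No other mature mouse miRNA among the 1679 in the RefSeq table has either seed. The longest run of bases shared with any of them was 9 for miR-223-3p and 10 for miR-223-5p.

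Total counts ran from 322764 to 1172389 per library, and 3 counts, the limit that a count of 0 allows, correspond to 2.56 to 9.29 CPM (counts per 1e6 counts of the library). Leukocyte RNA was present in every library: the 2 arms of miR-142a, made in all blood cell lineages, took 9.45% ± 2.45 of all counts in ConA+D8THC, 9.66% ± 0.886 in ConA+Vehicle and 4.92% ± 3.38 in Vehicle (SD, n = 2 each). The Vehicle libraries stood far apart here, with 7.31% in replicate 1 and 2.53% in replicate 2. miRNAs typical of other liver cells were present too. The endothelial arms of miR-126a took 23.7% ± 4.18 of counts in ConA+D8THC, 13.0% ± 0.310 in ConA+Vehicle and 33.4% ± 1.04 in Vehicle. Hepatocyte markers led by miR-122-5p took 6.17% ± 1.39 in ConA+D8THC, 18.4% ± 1.90 in ConA+Vehicle and 11.1% ± 3.91 in Vehicle. In such bulk RNA, fewer cells of a type and less RNA per cell cannot be told apart.

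ConA+Vehicle was set against Vehicle to ask how the miRNA moves in hepatitis. miR-223-3p rose strongly and became one of the most abundant miRNAs of the cells. It had 10460 and 9358 counts in the ConA+Vehicle libraries, against 2488 and 4096 counts in the larger Vehicle libraries. Scaled to library size with TMM factors, these were 26079 and 30971 CPM in ConA+Vehicle and 3433 and 3591 CPM in Vehicle. The groups lay far apart, and the Vehicle libraries nearly coincided. The means were 28525 ± 3459 CPM in ConA+Vehicle and 3512 ± 111 CPM in Vehicle (SD, n = 2 each), an 8.12-fold rise (log2 3.02 ± 0.25 SE, edgeR quasi-likelihood adjusted p = 4.43e-05). Its p-value was the smallest of the 297 miRNAs, and 10 miRNAs had a larger increase.

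As a share of all counts, miR-223-3p took 2.74% (95% exact binomial interval 2.69 to 2.80) and 2.90% (2.84 to 2.96) in the ConA+Vehicle libraries. In the Vehicle libraries it took 0.330% (0.317 to 0.343) and 0.349% (0.339 to 0.360). Such intervals cover counting error only. It ranked 8th by count among all miRNAs in both ConA+Vehicle libraries and 38th in both Vehicle libraries.

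miR-223-5p, the rarely kept strand, rose too. It had 40 and 50 counts in ConA+Vehicle, or 99.7 and 165 CPM, against 20 and 45 counts, or 27.6 and 39.4 CPM, in Vehicle. The CPM values did not overlap, but the replicates differed more from each other than those of the guide strand. The increase was 3.86-fold (log2 1.95 ± 0.40 SE, edgeR adjusted p = 0.00332). Both members were thus called higher, in a comparison where 19.9% of the 297 miRNAs were called higher, 16.8% lower and 36.7% in either direction. The groups did not overlap for 67.3% of all tested miRNAs.

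**Figure D1:**
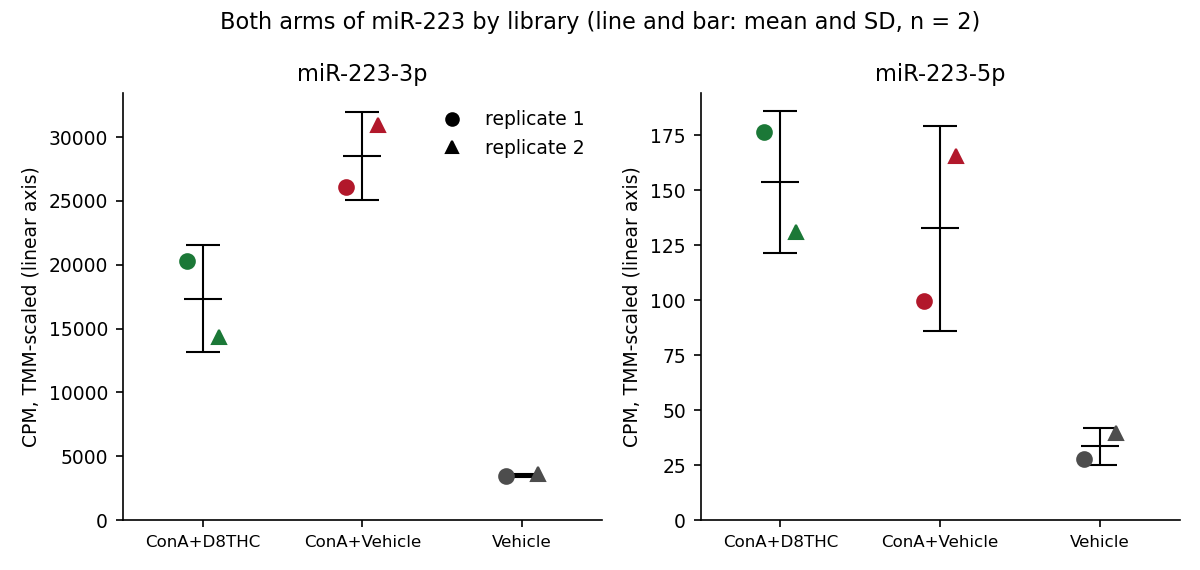
TMM-scaled CPM of miR-223-3p (left) and miR-223-5p (right) in each library of ConA+D8THC, ConA+Vehicle and Vehicle, with the group mean and SD (n = 2). Both arms are higher in all 4 libraries from ConA-treated mice than in the Vehicle libraries. Of the 2 arms, only miR-223-3p does not overlap between ConA+D8THC and ConA+Vehicle, as for 46.8% of tested miRNAs. That difference did not pass (edgeR adjusted p = 0.106).

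The effect of D8THC under ConA was read by setting ConA+D8THC against ConA+Vehicle. miR-223-3p had 19665 and 10099 counts in ConA+D8THC, which were 20294 and 14368 CPM, against the 26079 and 30971 CPM of ConA+Vehicle. Both D8THC libraries lay below both ConA+Vehicle libraries. In this comparison the groups did not overlap, in either direction, for 46.8% of tested miRNAs. The means were 17331 ± 4190 CPM in ConA+D8THC and 28525 ± 3459 CPM in ConA+Vehicle (SD, n = 2 each). The log2 difference was -0.72 ± 0.23 SE (95% interval -1.23 to -0.20) and did not pass (unadjusted p = 0.0107, edgeR adjusted p = 0.106), in a comparison where 3.7% of miRNAs were called, all of them lower. It passed when Vehicle replicate 1 (adjusted p = 0.0381) or Vehicle replicate 2 (0.0282) was left out of the shared estimate of the spread, although neither library belongs to the comparison. Leaving out ConA+D8THC replicate 2 brought the difference to -0.47 (adjusted p = 0.774). Hepatocyte markers moved in the same libraries: miR-122-5p was 3.22-fold lower in ConA+D8THC (edgeR adjusted p = 0.00999), and its part in the miR-223-3p value was not tested. With endothelial and hepatocyte markers left out of the counts, miR-223-3p stood at log2 -0.57 (adjusted p = 0.227).

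No such separation was seen for miR-223-5p, which had 171 and 92 counts in ConA+D8THC, or 176 and 131 CPM, against 99.7 and 165 CPM in ConA+Vehicle. The groups overlapped. The log2 difference was 0.23 ± 0.37 SE (95% interval -0.59 to 1.04, edgeR adjusted p = 0.867), an interval that spans 0. Without ConA+Vehicle replicate 1 its sign turned, to -0.11.

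Both arms rose in ConA+D8THC against Vehicle. miR-223-3p averaged 17331 ± 4190 CPM in ConA+D8THC and 3512 ± 111 CPM in Vehicle, 4.93-fold higher (log2 2.30 ± 0.24 SE, edgeR adjusted p = 0.000164). It took 2.15% and 1.46% of counts in the ConA+D8THC libraries, where it ranked 12th and 16th. miR-223-5p averaged 154 ± 32.2 CPM in ConA+D8THC and 33.5 ± 8.38 CPM in Vehicle, 4.52-fold higher (log2 2.18 ± 0.38 SE, adjusted p = 0.00232). Of all tested miRNAs, 18.5% were called higher here, 14.1% lower and 32.7% in either direction, and the groups did not overlap for 74.7%, the arms of miR-223 among them. The comparison shares its Vehicle libraries with ConA+Vehicle against Vehicle, so the increases are not independent. The order of levels for miR-223-3p was ConA+Vehicle, ConA+D8THC and Vehicle, and the difference between the ConA groups did not pass the test. For miR-223-5p the ConA groups could not be ordered, and Vehicle was lowest.

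**Figure D2:**
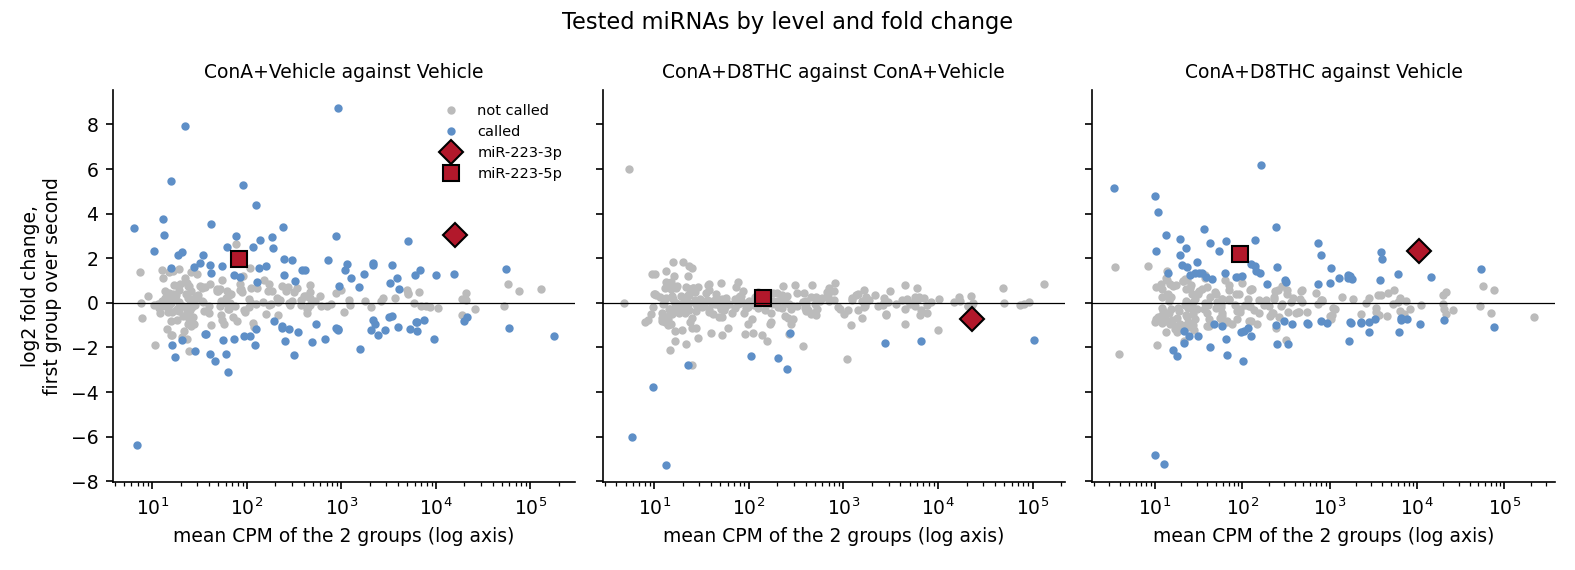
Log2 fold change (first group over second) against the mean CPM of the 2 groups on a log axis, for the 297 tested miRNAs in each comparison, with miRNAs called at an edgeR adjusted p under 0.05 in blue. miR-223-3p (diamond) is at log2 3.02, -0.72 and 2.30, and miR-223-5p (square) at 1.95, 0.23 and 2.18, from left to right.

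The balance of the strands was compared directly, since library size cancels in a ratio within a library. miR-223-5p made up 0.862% (95% exact binomial interval 0.738 to 1.00) and 0.903% (0.728 to 1.11) of the hairpin's counts in ConA+D8THC. It made up 0.381% (0.272 to 0.518) and 0.531% (0.395 to 0.700) in ConA+Vehicle, and 0.797% (0.488 to 1.23) and 1.09% (0.794 to 1.45) in Vehicle. Both ConA+Vehicle libraries were below those of the other groups, and the ConA+D8THC values lay within the range of Vehicle. The intervals of ConA+Vehicle replicate 2 and Vehicle replicate 1 overlapped. How often other hairpins separated in this way was not counted. There were 112 ± 3.70 counts of miR-223-3p for each of miR-223-5p in ConA+D8THC, 224 ± 52.6 in ConA+Vehicle and 108 ± 23.6 in Vehicle (SD, n = 2 each). The 5p arm was thus the minor one in every library, at a mean of 0.760%, against a median minor share of 6.67% over the 66 miRNAs with both arms tested.

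The 5p to 3p ratio of miR-223 fell by 1.07 on the log2 scale in ConA+Vehicle against Vehicle (SE 0.28, limma adjusted p = 0.0342 over the 66 hairpins, 19.7% of which were called). This call was not stable. It ended without Vehicle replicate 2 (adjusted p = 0.133), ConA+Vehicle replicate 1 (0.0797), ConA+Vehicle replicate 2 (0.0501), ConA+D8THC replicate 1 (0.101) or ConA+D8THC replicate 2 (0.101), with only the 4 libraries compared (0.0981), and with all hairpins that had a count of each arm (0.155). The ratio was log2 0.97 higher in ConA+D8THC against ConA+Vehicle (SE 0.28, 95% interval 0.31 to 1.62). That did not pass (unadjusted p = 0.00979, limma adjusted p = 0.276). At an unadjusted p under 0.05 there were 7 of the 66 hairpins, miR-223 having the second smallest p, and limma called 0 (0%) after adjustment; with a pseudocount of 5 in place of 0.5 it was called (adjusted p = 0.0294). Against Vehicle, where 16.7% of hairpins were called, the difference in ConA+D8THC was -0.10 (SE 0.28, adjusted p = 0.784). The ConA+Vehicle libraries hold 40 and 50 counts of miR-223-5p, which limits the precision of these ratios.

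**Figure D3:**
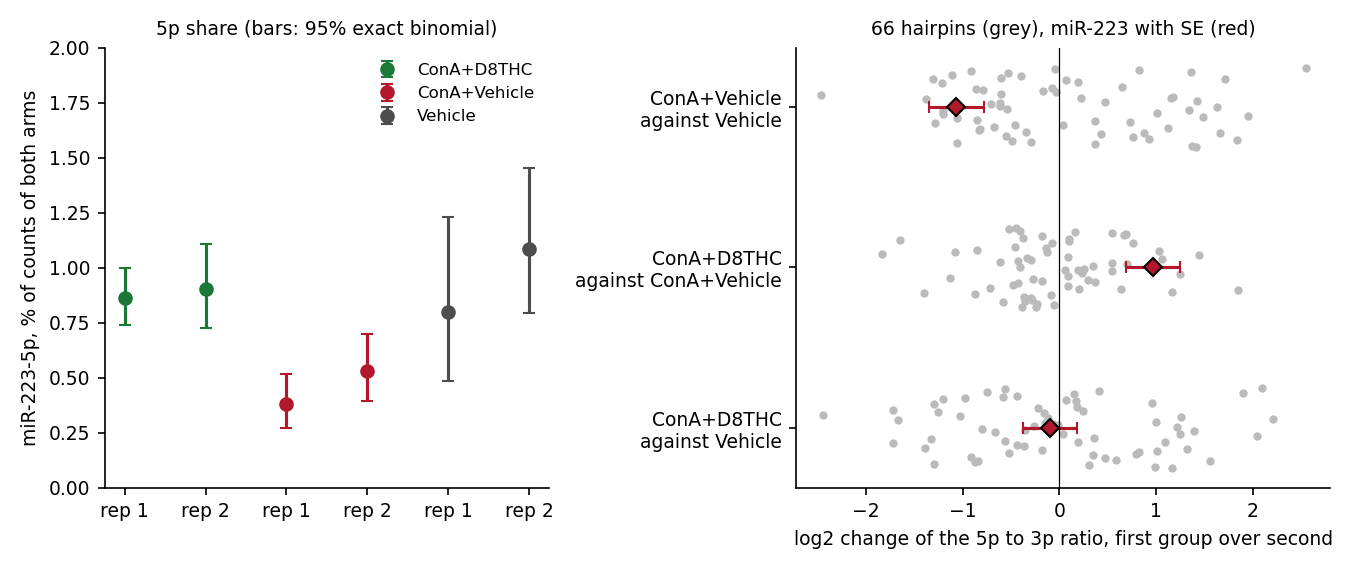
Left, the share of miR-223 counts from the 5p arm in each library, with 95% exact binomial intervals, lowest in the ConA+Vehicle libraries at 0.381% and 0.531%. Right, the log2 change of the 5p to 3p ratio for 66 hairpins in each comparison (grey points, spread vertically for display), with miR-223 and its SE in red at -1.07, 0.97 and -0.10.

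miR-223-3p was also set against other blood cell miRNAs of the same library, since the share of counts from the miR-142a arms differed between libraries. Per count of the miR-142a arms, there were 0.193 and 0.189 counts of miR-223-3p in ConA+D8THC, 0.267 and 0.321 in ConA+Vehicle, and 0.0452 and 0.138 in Vehicle. The 3 groups did not overlap, and the Vehicle libraries lay far apart. How often other miRNAs separated the groups on this scale was not counted. On this scale the ConA+Vehicle mean was 3.21-fold the Vehicle mean, against 8.12-fold in CPM. With each library scaled to miR-142a, which moved the median of all tested miRNAs to log2 -1.17 in ConA+Vehicle against Vehicle and -1.21 in ConA+D8THC against Vehicle, neither arm was called. miR-223-3p was then at log2 1.68 (edgeR adjusted p = 0.102) and 1.06 (0.271), and miR-223-5p at 0.56 (0.566) and 0.88 (0.351), in these comparisons in turn. Under this scaling 9 miRNAs were called higher and 63 lower in the first comparison, against 59 and 50 with TMM factors, and 5 and 50 in the second, against 55 and 42.

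Per count of miR-150-5p, a miRNA of mature lymphocytes, miR-223-3p stood at 3.16 and 3.56 in ConA+D8THC, 3.05 and 4.56 in ConA+Vehicle, and 0.513 and 0.857 in Vehicle. All 4 ConA libraries lay above Vehicle, and the ConA groups overlapped. miR-150-5p itself was not called in ConA+Vehicle against Vehicle (log2 0.50 ± 0.29 SE, edgeR adjusted p = 0.216). How often other miRNAs separated the groups per count of miR-150-5p was not counted. These ratios to other miRNAs are given as a description and were not tested.

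**Figure D4:**
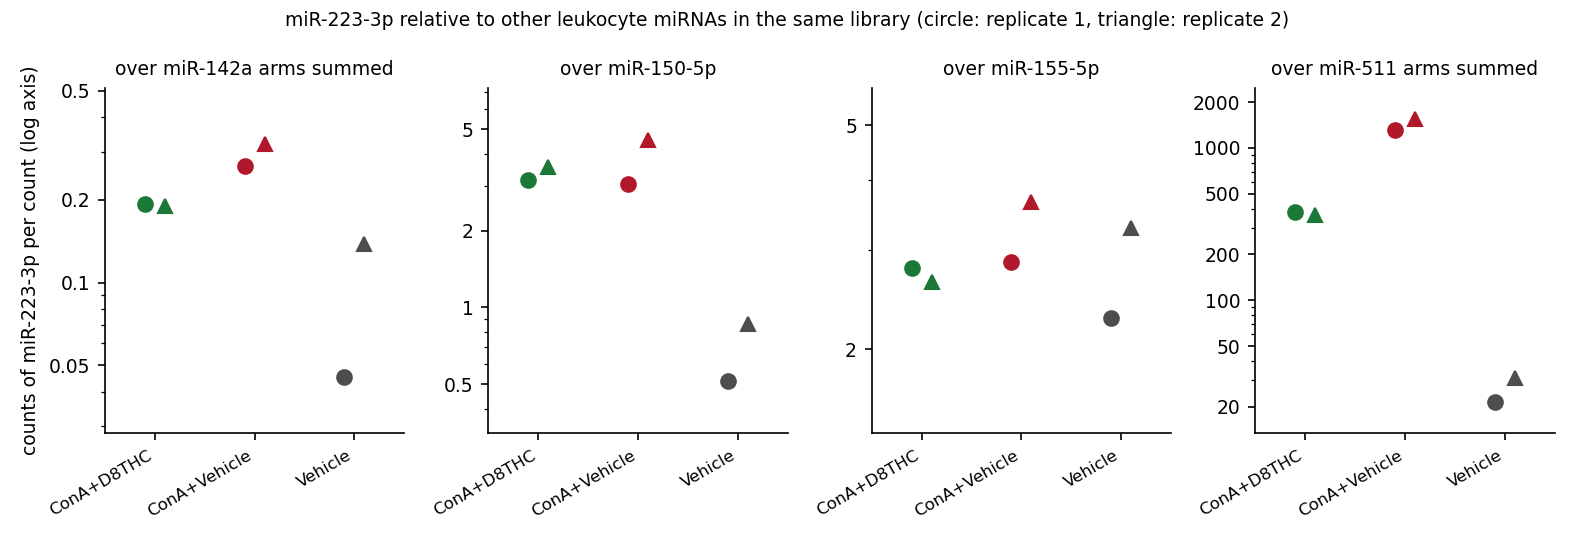
Counts of miR-223-3p per count of the miR-142a arms, miR-150-5p, miR-155-5p and the miR-511 arms in each library, on log axes of different range. ConA libraries lie above Vehicle except over miR-155-5p, where the group means are 2.71 in ConA+D8THC, 3.25 in ConA+Vehicle and 2.78 in Vehicle. miR-155-5p has the profile nearest to that of miR-223-3p in these same libraries, so a level ratio over it follows from that likeness.

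The profile most like that of miR-223-3p belonged to miR-155-5p, a miRNA induced on activation of lymphocytes and macrophages. Likeness was the root mean square difference of log2(CPM + 1), centred on each miRNA's mean over the 6 libraries, among the 291 other tested miRNAs with a mean of at least 10 CPM. It was 0.22 for miR-155-5p, 0.26 for miR-20b-5p, 0.37 for miR-18a-5p, 0.40 for miR-210-3p and 0.40 for miR-106a-5p. The other strand of the same hairpin, miR-223-5p, came 11th, at 0.52. With the 3 group means in place of the 6 libraries, miR-363-3p and miR-18b-5p took the places of miR-210-3p and miR-106a-5p. miR-20b, miR-106a, miR-18b and miR-363 are encoded in one X-linked cluster related to miR-17~92, which holds miR-18a and is linked to cell proliferation, and miR-210-3p is a hypoxia-responsive miRNA. Their mature strands are shown with the seed in capitals, to set the seeds of these miRNAs beside those of miR-223.
miR-155-5p: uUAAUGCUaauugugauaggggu
miR-20b-5p: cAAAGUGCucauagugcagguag
miR-106a-5p: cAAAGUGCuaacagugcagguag
miR-18a-5p: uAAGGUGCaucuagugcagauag
miR-210-3p: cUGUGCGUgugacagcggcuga
miR-20b-5p and miR-106a-5p share a seed with each other, and none of the 5 shares one with either strand of miR-223. Reads of miR-20b-5p and miR-106a-5p can be shared with miR-20a-5p and miR-17-5p, and those of miR-18a-5p with miR-18b-5p.

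miR-155-5p had 7285 and 5460 CPM in ConA+D8THC, 9125 and 8489 CPM in ConA+Vehicle, and 1511 and 1091 CPM in Vehicle. The 5 miRNAs were chosen on these same 6 libraries, so a profile near that of miR-223-3p follows from the choice, and their values are a description. miR-155-5p was 6.77-fold higher in ConA+Vehicle than in Vehicle. In ConA+D8THC against ConA+Vehicle it stood at log2 -0.47 ± 0.23 SE (edgeR adjusted p = 0.349). There miR-106a-5p was at log2 -0.70, miR-18a-5p at -0.45, miR-20b-5p at -0.31 and miR-210-3p at 0.01, and none of the 5 was called. Between ConA+Vehicle and Vehicle, miR-20b-5p was 7.98-fold higher, miR-210-3p 7.01-fold, miR-18a-5p 5.61-fold and miR-106a-5p 5.51-fold.

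The miRNAs that C/EBPα or PU.1 are known to induce, or that are linked to them in myeloid cells, were set beside all tested miRNAs. Of 13 listed, 11 were tested in ConA+Vehicle against Vehicle, of which 2 rose, 5 fell and 4 were not called, beside 19.9% higher and 16.8% lower over all 297. The share that rose is thus near that of all miRNAs, and the part of either factor in the rise of miR-223 was not tested. The list's median was log2 -0.55, against 0.10 over all 297. The 2 that rose were miR-155-5p and miR-342-3p, which is also a lymphocyte marker (1893 ± 272 CPM in ConA+Vehicle and 1148 ± 77.9 CPM in Vehicle). The 5 that fell were miR-30c-5p, at 3680 ± 543 CPM in ConA+Vehicle and 8817 ± 654 CPM in Vehicle, and miR-23a-3p, miR-24-3p, miR-27a-3p and miR-328-3p. miR-23a-3p, miR-24-3p and miR-27a-3p come from the miR-23a cluster, and miR-24-3p is also made from another hairpin. Without ConA+Vehicle replicate 1, and likewise without ConA+Vehicle replicate 2, only 1 rose and 1 fell; scaled to miR-142a, 0 rose, 5 fell and miR-342-3p turned to log2 -0.57. The abundant miR-146a-5p was not called (log2 -0.55 ± 0.23 SE, adjusted p = 0.0856). The endothelial miR-126a-3p fell in the same comparison, 2.81-fold (edgeR adjusted p = 0.000921), and its part in the lowered members was not tested.

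Among the same 11 in ConA+D8THC against Vehicle, 3 rose (miR-155-5p, miR-342-3p and miR-27a-5p), 3 fell (miR-30c-5p, miR-23a-3p and miR-24-3p) and 5 were not called, beside 18.5% higher and 14.1% lower over all tested miRNAs. Without ConA+D8THC replicate 1 this was 1 higher and 1 lower, without Vehicle replicate 2 it was 2 higher and 1 lower, and scaled to miR-142a it was 0 higher and 2 lower. Between ConA+D8THC and ConA+Vehicle, edgeR, DESeq2 and limma-voom each called 0 of the 11, and 0 had an unadjusted p under 0.05.

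The miRNAs listed for resident macrophages fell, but they are not independent of each other. Both strands of the miR-511 hairpin are on the list, and its remaining members share a cluster. All 5 were called lower in ConA+Vehicle against Vehicle, where 16.8% of all tested miRNAs were. Since members share a hairpin or a cluster, that percentage does not measure how unusual 5 of 5 is. Their median was log2 -1.43, against 0.10 over all tested miRNAs. miR-511, encoded in an intron of the mannose receptor gene Mrc1, had 52 and 28 counts of both arms in ConA+D8THC, 8 and 6 in ConA+Vehicle, and 116 and 133 in Vehicle. Its arm miR-511-3p was at 13.3 ± 4.65 CPM in ConA+Vehicle and 112 ± 40.0 CPM in Vehicle, 8.55-fold lower (log2 -3.10 ± 0.47 SE, edgeR adjusted p = 0.000638). The other arm, miR-511-5p, was at 6.64 ± 4.71 CPM in ConA+Vehicle and 25.9 ± 9.27 CPM in Vehicle (log2 -1.88, edgeR adjusted p = 0.0472). A count of 0 allows up to 7.87 and 9.29 CPM in the ConA+Vehicle libraries. The ConA+Vehicle mean of miR-511-3p lies near that limit and that of miR-511-5p below it. miR-511-5p lost its call with library totals, in DESeq2 and in limma-voom. Its call was also lost with replicate 2 of Vehicle left out (-1.42), and with replicate 1 (-2.92) or 2 (-1.40) of ConA+Vehicle left out. The clustered miR-125a-5p, let-7e-5p and miR-99b-5p were 2.70-fold, 2.33-fold and 2.24-fold lower. There were 378 and 361 counts of miR-223-3p per count of the miR-511 arms in ConA+D8THC, 1308 and 1560 in ConA+Vehicle, and 21.4 and 30.8 in Vehicle, so that both the numerator and the small denominator separated the groups. Without ConA+Vehicle replicate 1, 3 of the 5 were called. The part of the endothelial decrease in these values was not tested either.

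ConA+D8THC against Vehicle gave 3 of the 5 miRNAs listed for resident macrophages as lower, beside 14.1% of all tested miRNAs. These were miR-511-3p and, from the shared cluster, miR-125a-5p and let-7e-5p. The arms of the miR-511 hairpin differed here. miR-511-3p was at log2 -2.33, but miR-511-5p was level, at 24.7 ± 8.81 CPM in ConA+D8THC and 25.9 ± 9.27 CPM in Vehicle (log2 -0.07, edgeR adjusted p = 0.899). miR-99b-5p was not called either (log2 -0.28, adjusted p = 0.395). Without Vehicle replicate 2 or without ConA+D8THC replicate 1, only 1 of the 5 was called lower. With ConA+D8THC set against ConA+Vehicle, edgeR and limma-voom called 0 of the 5, and 3 had an unadjusted p under 0.05 in edgeR (median log2 0.77, against -0.04 over all tested miRNAs). The count was 1 higher in DESeq2 and, in edgeR, 1 higher without Vehicle replicate 1, Vehicle replicate 2 or ConA+D8THC replicate 1, with 2 against 2 libraries, with endothelial and hepatocyte markers left out and with a minimum of 50 CPM, and 2 higher with the replicate block. The blood cell marker miR-142a-5p rose 2.48-fold in ConA+Vehicle against Vehicle (edgeR adjusted p = 0.0188), at log2 1.31, which became 1.98 without Vehicle replicate 1 and 0.87 without Vehicle replicate 2. miR-142a-3p was at 75108 ± 731 CPM in ConA+Vehicle and 42146 ± 30658 CPM in Vehicle (adjusted p = 0.222).

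**Figure D5:**
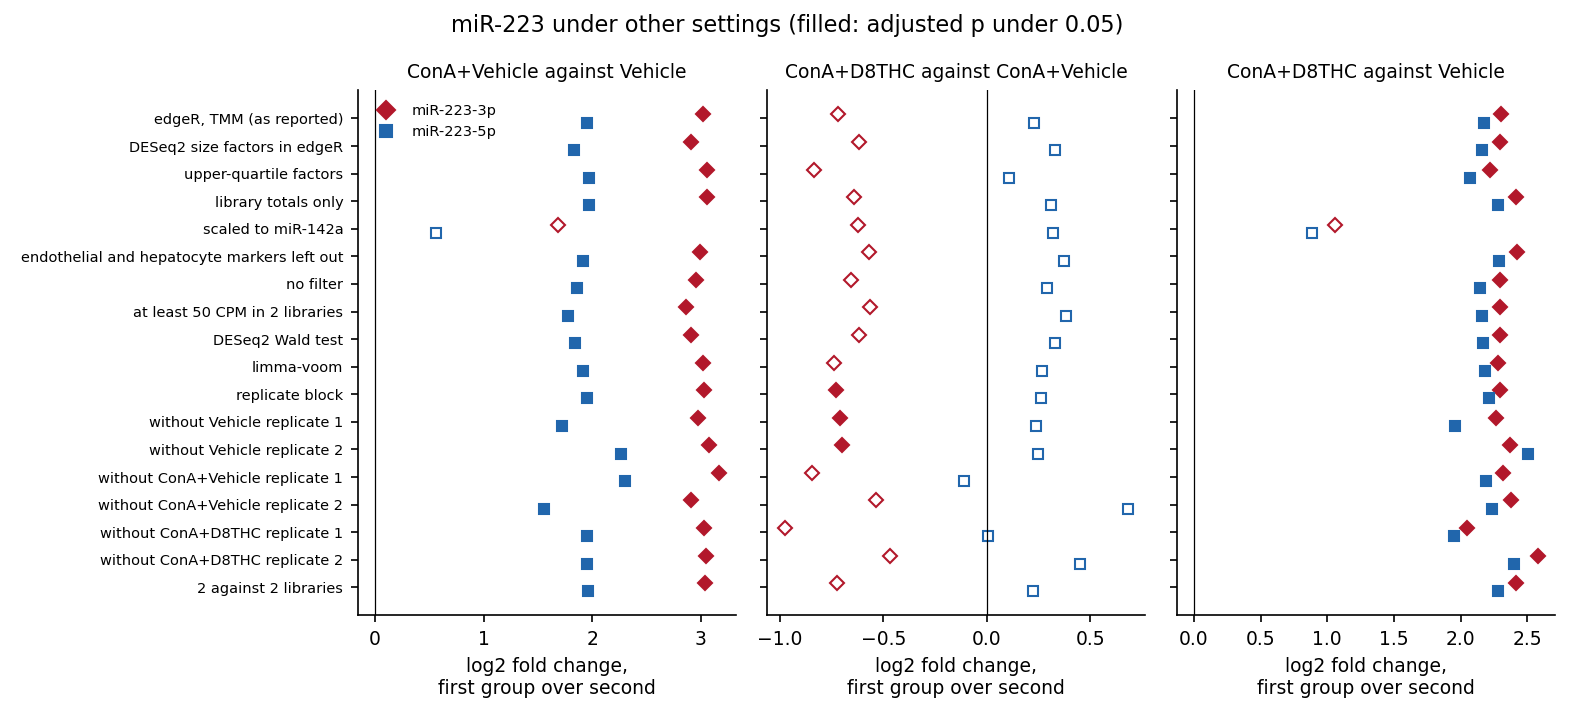
Log2 fold change of miR-223-3p (diamonds) and miR-223-5p (squares), first group over second, in the reported fit and 17 others, filled where the adjusted p is under 0.05. Against Vehicle both arms stay above 0 in every setting shown and lose the call only when scaled to miR-142a; in ConA+D8THC against ConA+Vehicle miR-223-3p stays between -0.98 and -0.47.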

How the data were processed

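Mature miRNAs were counted in 6 libraries of 3 groups. Cells came from livers dissociated by a Miltenyi kit, with miRNeasy RNA and QIAseq miRNA libraries, per the labels. The deposited values are raw counts per miRNA, which the authors made in QIAGEN's GeneGlobe portal, per the series' design text, with build mm10 per the submitters' processing notes. The aligner, the miRNA release, the treatment of reads matching several miRNAs and any use of molecular identifiers are not stated there.

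R 4.3.3 and edgeR 4.0.16 were used for the counts (filterByExpr by group, TMM, glmQLFit with robust estimation, glmQLFTest, all 6 libraries, 3 residual degrees of freedom). Benjamini-Hochberg adjustment ran over all 297 miRNAs within a comparison, with calls under 0.05. SEs are the absolute log2 change over the square root of F. Arm ratios, log2((5p + 0.5)/(3p + 0.5)), were tested with limma 3.58.1 over 66 hairpins. DESeq2 1.42.0, limma-voom, other scalings and filters, a replicate block and left-out libraries were alternatives. The procedure was also run on simulated counts with the same dispersion for every miRNA and library. That is a simpler spread than in these data, and no result here rests on it. Replicates of a group differed beyond sampling noise (chi-square per degree of freedom 14.8 to 188). The members and lists were chosen with earlier results of these data known. miRNAs named are the members, the 5 nearest profiles, the 2 most abundant members of marker lists, called members of the C/EBPα or PU.1 list, and others chosen after their values were seen (the miR-511 arms, miR-99b-5p, miR-363-3p, miR-18b-5p, miR-146a-5p). Sequences are RefSeq's (GRCm38.p6), in which 1671 of the 1960 names matched. Figures were drawn in Python 3.11.15 with matplotlib 3.10.9.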

Additional observations from a re-analysis of the deposited data

How the results depend on the processing

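The rises of both arms in both comparisons with Vehicle kept their direction in all 17 alternatives and their call in 16. Leaving out 1 library moved miR-223-3p between log2 2.91 and 3.16 in ConA+Vehicle against Vehicle and between 2.05 and 2.58 in ConA+D8THC against Vehicle, and miR-223-5p between 1.55 and 2.30 and between 1.95 and 2.51. The exception was scaling to miR-142a, with 1.68 and 1.06 for miR-223-3p and 0.56 and 0.88 for miR-223-5p. In ConA+D8THC against ConA+Vehicle, leaving out 1 library gave -0.98 to -0.47 for miR-223-3p, called without either Vehicle library, and -0.11 to 0.68 for miR-223-5p, which turned sign without ConA+Vehicle replicate 1. The cause was not tested.

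The arm ratio lost its call in ConA+Vehicle against Vehicle at an unchanged -1.07 with 2 against 2 libraries and with all hairpins that had a count of each arm, and ran from -1.30 to -0.83 with 1 library left out. In ConA+D8THC against ConA+Vehicle it was called with a pseudocount of 5 (0.88) and ran from 0.73 to 1.21, and in ConA+D8THC against Vehicle from -0.31 to 0.12, turning sign without Vehicle replicate 2. Scaled to miR-142a, miR-342-3p turned to -0.57 and -0.12 in the comparisons of ConA+Vehicle and ConA+D8THC with Vehicle, and miR-27a-5p to -0.30 in the second. Of the 5 nearest profiles, 3 were shared with group means and all 5 with library totals.

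The number of miRNAs called was 109 in ConA+Vehicle against Vehicle, 67 to 129 with 1 library left out (67 without ConA+Vehicle replicate 1) and 72 scaled to miR-142a. ConA+D8THC against Vehicle had 97, or 63 to 112 (63 without ConA+D8THC replicate 1) and 55. ConA+D8THC against ConA+Vehicle had 11, or 8 to 40 (34 and 40 without Vehicle replicates 1 and 2, 17 without ConA+Vehicle replicate 2, 17 and 24 without ConA+D8THC replicates 1 and 2) and 4. These 11, none higher, were 17 with upper-quartile factors, 19 with no filter, 17 in DESeq2 (5 higher, 12 lower), 18 with 2 against 2 libraries and 26 at an FDR of 0.1, and split into 5 higher and 9 lower with endothelial and hepatocyte markers left out and 7 and 7 with a minimum of 50 CPM.

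Same-numbered libraries deviated together weakly (r = 0.0786 to 0.219 across miRNAs) and no label pairs them. With the replicate block the number called was 132 in ConA+Vehicle against Vehicle, 133 in ConA+D8THC against Vehicle and 44 in ConA+D8THC against ConA+Vehicle, where miR-223-3p was called lower (-0.73, adjusted p = 0.00827), and no other call of either arm or of the arm ratio changed.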
